A study of Mus musculus with 23 samples.

Results

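Of the 7500 consensus windows of Zbtb11 chromatin immunoprecipitation sequencing (ChIP-seq) in mouse embryonic stem cells (ESCs), 1651 were intergenic. These windows overlapped no promoter, defined as 2000 bases upstream to 500 bases downstream of any annotated transcript start, and their midpoint lay in no gene body. A further 4256 windows overlapped a promoter and 1593 lay within genes. The windows are those shared by ChIP-seq with an antibody to Zbtb11 in E14 cells with the Zbtb11WT/WT genotype (4 libraries) and by FLAG ChIP-seq in Zbtb11FLAG/FLAG cells (3 libraries). The tagged cells are a single homozygous line derived from E14, in which the endogenous protein carries FLAG at its N terminus. FLAG ChIP-seq in untagged E14 cells (2 libraries, FLAG control) served the authors as background, and no window of any class overlapped its peaks, since the authors had removed those sites. RNA-sequencing (RNA-seq) compared 3 groups of 3 libraries after 48 h. Zbtb11lox/lox cells with ERt2-Cre in the Rosa26 locus received 250 nM 4-hydroxytamoxifen (4OHT), which deletes Zbtb11 exon 3 (Zbtb11 KO), or ethanol (EtOH control), and cells with neither loxP sites nor Cre received 250 nM 4OHT (4OHT control). The conditional cells are an engineered E14 derivative. The controls thus differ from each other in both the alleles they carry and the agent they received.

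Zbtb11 belongs to the ZBTB family, proteins that join a BTB domain, through which they bind each other, to zinc fingers that contact DNA. It has been linked to NRF-2, also called GABP, a factor of the ETS family that recognises DNA with a GGAA core and acts mainly at CpG-rich promoters of housekeeping genes. Sites between genes can be enhancers, which act on promoters at a distance, starts of unannotated transcripts, or repeats. The nearest gene start is a position on the chromosome and does not name the gene that a site acts on.

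Between 611932 and 1915856 reads per ChIP-seq library fell in windows, and between 14301457 and 23876604 reads per RNA-seq library were counted on genes. All 8 ESC markers were expressed in every RNA-seq library (211 to 1129 counts per 1e6 counts, CPM), whereas 8 markers of differentiated lineages lay between 0 and 16.6 CPM. Zbtb11 itself could not be followed, because the gene table joins it with Rpl24 in 1 entry that held 5408 to 8728 counts per library. Replicate 1 of the RNA-seq stood apart from replicates 2 and 3 in all groups.

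The central 300 bases of 6 intergenic windows show the sequence features described below. They come from the windows named after their nearest genes Gm17544, C230035I16Rik and Foxn4, all among the 10 with the highest coverage, from the window nearest to the ESC gene Jarid2, and from windows with the strongest preference for the Zbtb11 antibody (4932435O22Rik) or for FLAG (Gm10359). Capitals mark, on either strand, the ETS words CCGGAAG and CAGGAAG and the words GGAACC and GGAACT. All are on the plus strand of mm9.
Gm17544, chr2:167088506-167088805: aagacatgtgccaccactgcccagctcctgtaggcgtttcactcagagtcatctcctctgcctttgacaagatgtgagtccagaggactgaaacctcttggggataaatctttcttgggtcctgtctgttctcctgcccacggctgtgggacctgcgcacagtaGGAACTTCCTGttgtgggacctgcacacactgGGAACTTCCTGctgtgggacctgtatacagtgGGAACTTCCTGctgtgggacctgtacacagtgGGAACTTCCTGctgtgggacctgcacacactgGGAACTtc
C230035I16Rik, chr13:23537638-23537937: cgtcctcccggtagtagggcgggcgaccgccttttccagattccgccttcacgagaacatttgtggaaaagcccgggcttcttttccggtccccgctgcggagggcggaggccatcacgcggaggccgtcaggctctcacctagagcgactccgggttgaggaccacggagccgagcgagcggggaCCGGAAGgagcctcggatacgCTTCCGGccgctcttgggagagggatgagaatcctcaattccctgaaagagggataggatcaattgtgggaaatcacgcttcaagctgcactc
Foxn4, chr5:114729238-114729537: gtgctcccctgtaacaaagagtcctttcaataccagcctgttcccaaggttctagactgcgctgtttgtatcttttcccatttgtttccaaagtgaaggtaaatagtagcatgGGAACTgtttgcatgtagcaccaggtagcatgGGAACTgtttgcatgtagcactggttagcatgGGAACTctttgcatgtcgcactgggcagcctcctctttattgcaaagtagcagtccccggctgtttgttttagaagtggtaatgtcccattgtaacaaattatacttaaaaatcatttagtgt
Jarid2, chr13:44811333-44811632: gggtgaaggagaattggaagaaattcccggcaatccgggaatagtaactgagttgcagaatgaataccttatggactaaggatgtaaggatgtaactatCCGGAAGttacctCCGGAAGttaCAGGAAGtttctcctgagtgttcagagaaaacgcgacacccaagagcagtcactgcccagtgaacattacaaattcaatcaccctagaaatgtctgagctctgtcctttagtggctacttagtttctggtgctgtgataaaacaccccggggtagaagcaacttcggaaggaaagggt
4932435O22Rik, chr11:114338833-114339132: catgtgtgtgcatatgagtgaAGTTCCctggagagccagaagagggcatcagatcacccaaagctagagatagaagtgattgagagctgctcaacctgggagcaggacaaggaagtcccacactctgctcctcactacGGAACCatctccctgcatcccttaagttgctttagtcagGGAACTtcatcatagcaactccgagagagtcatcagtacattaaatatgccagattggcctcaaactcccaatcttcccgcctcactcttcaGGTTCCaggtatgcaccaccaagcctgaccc
Gm10359, chr5:106288911-106289210: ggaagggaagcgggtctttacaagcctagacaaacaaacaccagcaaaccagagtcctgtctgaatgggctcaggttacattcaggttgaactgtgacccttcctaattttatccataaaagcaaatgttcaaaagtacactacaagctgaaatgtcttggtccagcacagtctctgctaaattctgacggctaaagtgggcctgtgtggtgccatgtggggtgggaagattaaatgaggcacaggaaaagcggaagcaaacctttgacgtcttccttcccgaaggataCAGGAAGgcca
The Gm17544 window held a tandem repeat in which GGAACT and CAGGAAG overlapped 4 times. The C230035I16Rik window held CCGGAAG on both strands, and the Jarid2 window held it 2 times. The Foxn4 window repeated GGAACT, which itself holds GGAA, 3 times and held neither CCGGAAG nor CAGGAAG.

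Intergenic windows were bound more weakly than promoter windows in every library. Their median normalised coverage was 56.7, 49.7, 53.9 and 47.9 in Zbtb11 replicates 1 to 4 and 45.9, 43.9 and 48.8 in FLAG-Zbtb11 replicates 1 to 3, whereas the promoter medians were 90.0, 93.0, 98.7, 92.2, 87.1, 86.3 and 90.6 in the same order. The highest intergenic median lay below the lowest promoter median. The mean log2 ratio of the medians was -0.88 ± 0.10 (SD, n = 7 libraries), that is 0.542-fold, and was below 0 in 7 of 7 libraries (exact sign-flip permutation test over libraries, two-sided, p = 0.0156, the smallest this design allows). Genic windows were much closer to the intergenic ones, with medians of 55.6, 44.9, 49.0, 44.3, 44.3, 43.9 and 48.4. The log2 ratio of intergenic to genic medians was 0.07 ± 0.06 (SD, n = 7), above 0 in 6 of 7 libraries and 0 in FLAG-Zbtb11 replicate 2 (same exact permutation test, p = 0.0312). With a library left out the log2 ratio was 0.056 to 0.081. Because FLAG-Zbtb11 replicate 2 has a ratio of exactly 0, no 6 libraries that include it can give an exact permutation p below 0.0625.

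**Figure D1:**
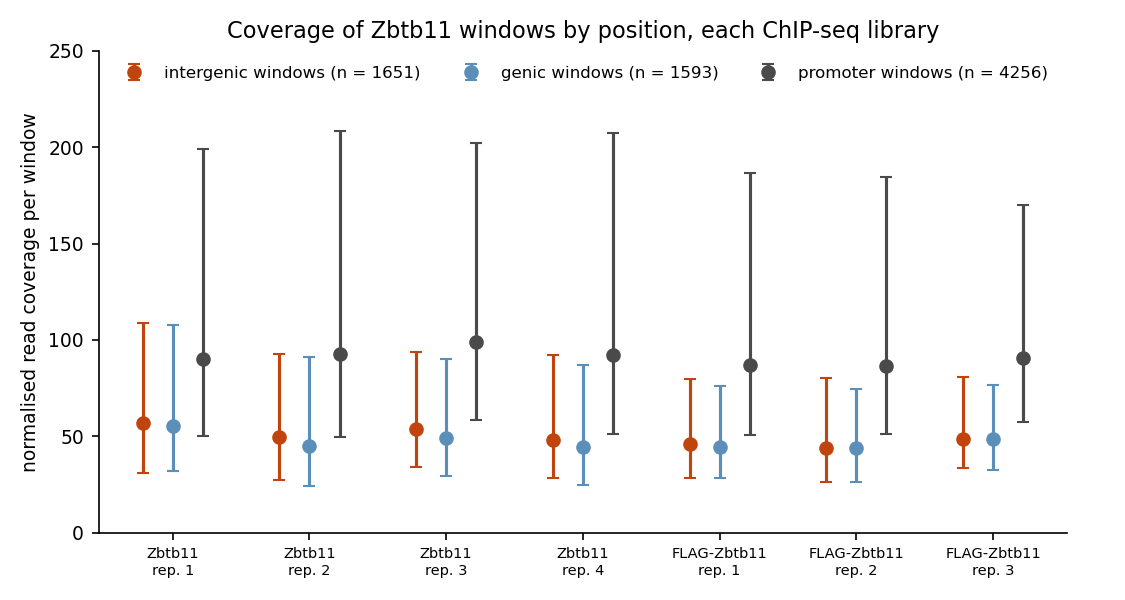
Normalised read coverage per window (y axis) in each of the 7 ChIP-seq libraries (x axis) for intergenic, genic and promoter windows. Points are medians and bars run from the lower to the upper quartile over windows. In every library the intergenic median (43.9 to 56.7) lies beside the genic median and below the promoter median (86.3 to 98.7).

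The relative weight of intergenic and promoter windows was compared between the ChIPs. The mean log2 ratio of intergenic to promoter medians was -0.85 over the Zbtb11 libraries and -0.93 over the FLAG-Zbtb11 libraries, a difference of 0.08 (exact permutation test, two-sided, p = 0.343, where the smallest possible p is 0.0571). Without Zbtb11 replicate 1, whose ratio of -0.67 was the highest, the difference was 0.02. Intergenic windows took between 12.1 and 14.8% of the coverage of all windows in a library.

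Strong binding was rare between genes. By the mean over the 4 Zbtb11 libraries, 66 intergenic windows (4.0%) lay above 308.9, the upper quartile of all windows plus 1.5 interquartile ranges, against 736 promoter windows (17.3%) and 55 genic windows (3.45%). The interquartile range of the intergenic windows was 31.6 to 94.7 and that of the promoter windows 53.2 to 202.8. Peaks called over the intergenic windows were also narrower, with a median width of 886 bases for the antibody and 878 bases for FLAG, against 1393 and 1388 bases at promoters.

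One of the 10 strongest intergenic windows (chr2:167088055-167089255) lay 14.8 kb downstream of Gm17544, at rank 227 of all 7500 windows, and reached 628, 774, 443 and 866 in Zbtb11 replicates 1 to 4 and 427, 371 and 231 in FLAG-Zbtb11 replicates 1 to 3, the order used for all windows named here. Here every antibody library exceeded every FLAG library, and the log2 ratio was 0.98 ± 0.28 (SE, limma adjusted p = 0.0207). This call was lost when coverage was centred on each library's median (adjusted p = 0.0701), and without Zbtb11 replicate 2 (0.0682), FLAG-Zbtb11 replicate 2 (0.0608) or FLAG-Zbtb11 replicate 3 (0.0876). The 10 windows were chosen by their antibody coverage, a choice that favours a higher ratio of antibody to FLAG. Their ratios and calls are therefore a description.

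A further 8 windows of the highest 10 had mean Zbtb11 coverage between 545.6 and 645.5 and mean FLAG-Zbtb11 coverage between 373.2 and 632.9, and none of these 8 passed the test between the ChIPs (limma adjusted p of 0.169 to 0.891). The window 6.88 kb upstream of Abcc4, which encodes a membrane exporter, had 443, 662, 508 and 969 with the antibody and 565, 580 and 386 with FLAG. Near Lbx1 and Foxn4, genes of developmental transcription factors, the windows lay 60.3 and 5.57 kb upstream and had mean antibody coverage of 563 ± 154 and 567 ± 149 (SD, n = 4). A window 15.6 kb upstream of Mta3, which encodes a subunit of the chromatin-remodelling complex NuRD, had 557 ± 158 (SD, n = 4). The window 3.99 kb upstream of Anapc5, a subunit of the anaphase-promoting complex, had 546 ± 141 (SD, n = 4). The remaining 3 lay near the processed transcripts C230035I16Rik and Gm13203 and the pseudogene Gm7308. Only the C230035I16Rik window held a CpG island of at least 500 bases among the 10.

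The windows lay at all distances from genes. The median distance from the window midpoint to the nearest gene start was 19.9 kb (interquartile range 9.17 to 47.3 kb), and 30.0 kb to the nearest protein-coding start. Within 5 kb lay 195 windows, 634 lay between 5 and 20 kb, 661 between 20 and 100 kb and 161 at 100 kb or more. The nearest start belonged to a protein-coding gene for 1070 windows (64.8%), and 971 windows (58.8%) lay upstream of it. The definition leaves out windows at promoters and midpoints in gene bodies, so by itself it lowers the counts near starts and downstream of them. The windows spread over 1473 nearest genes, of which 1320 had a single window. Rap1b, a small GTPase of the Ras family, had the most with 5, and Lbx1 was among the 4 genes with 4 windows.

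Coverage was highest 5 to 20 kb from a gene start and lowest beyond 100 kb. In the nearer of these bins the median was 64.5, 56.1, 59.6 and 53.2 in the Zbtb11 libraries and 51.4, 48.3 and 53.7 in the FLAG-Zbtb11 libraries. Beyond 100 kb it was 43.3, 40.1, 46.0 and 40.8 and 33.2, 36.6 and 43.8, lower than in the 5 to 20 kb bin in 7 of 7 libraries. Of the 66 windows above 308.9, 39 lay in the 5 to 20 kb bin and 1 beyond 100 kb. The 3 most remote windows lay 796.5, 742.0 and 695.2 kb from the starts of SNORA17, Agbl1 and n-R5s30, a small nucleolar RNA, a carboxypeptidase gene and a ribosomal RNA entry. Their mean antibody coverage was 22.03 ± 20.4, 46.2 ± 26.2 and 48.9 ± 11.7 (SD, n = 4). Around SNORA17 the antibody libraries gave 1.11, 8.02, 40.0 and 39.0, so that the spread between replicates was nearly as large as the mean.

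**Figure D2:**
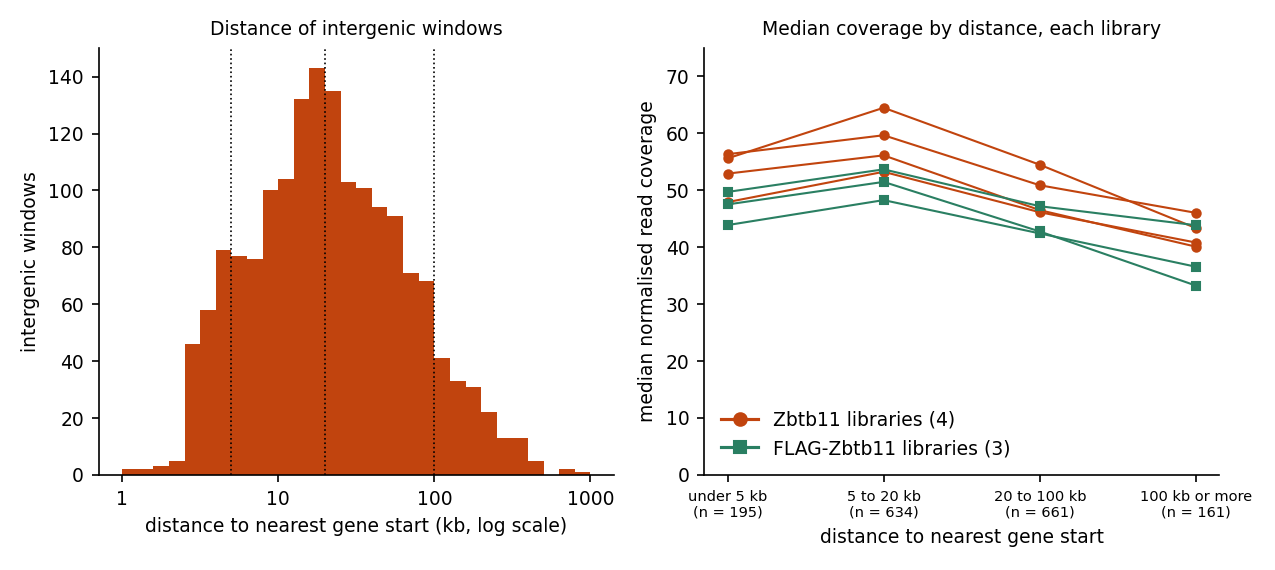
Left, number of intergenic windows by distance to the nearest gene start (kb, log scale), with dotted lines at 5, 20 and 100 kb. Right, median normalised coverage (y axis) in the 4 distance bins (x axis), with 1 line per library. In each of the 7 libraries the 5 to 20 kb bin is highest and the bin beyond 100 kb is lowest.

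Most intergenic windows were poor in CpG. CpG islands were stretches of 500 bases whose GC content reached 55% and whose CpG frequency reached 0.65 of that expected from their base composition. Such an island lay wholly within 189 intergenic windows (11.4%), 165 genic windows (10.4%) and 3498 promoter windows (82.2%). Islands that only reached over a window edge were not counted. The shares depend on the definition. With stretches of 200 bases, a GC content of 50% and a ratio of 0.6 they were 43.0, 38.2 and 92.4%. The median GC content of the central 300 bases was 51.3% against 63.3% at promoters, and the median observed-to-expected CpG ratio 0.298 against 0.708. Windows with an island had a median antibody coverage of 58.7, those without 50.5, and the shares above 308.9 were 4.76 and 3.9%.

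A few intergenic windows matched the sequence around transcript starts of a later annotation. The 300 bases around RefSeq starts (GRCm38.p6) matched 86 intergenic windows (5.21%), 59 at long noncoding RNAs and 27 at protein-coding genes. In 54 of them the matched start lay within 150 bases of the window midpoint. Matches were by sequence and chromosome, not by position. The long noncoding RNA Gm36816 matched several windows far apart on chromosome 6, so a match does not always place the start itself. These included the windows at Gm46404 (mean antibody coverage 643.9, the C230035I16Rik window), Gm34507 (508.2), 4930425O10Rik (375.5), and the zinc finger genes Zscan25 (352.7), Zfp780b (347.9) and Zfp518a (338.9), which were the first 6 of the 86 by coverage. Median coverage in the 86 windows was 66.1, 63.3, 69.9 and 65.6 in the Zbtb11 libraries and 53.8, 64.3 and 67.0 in the FLAG-Zbtb11 libraries. In the other 1565 windows it was 56.7, 48.1, 52.7 and 47.9 and 45.9, 42.4 and 48.4, lower in 7 of 7 libraries. Of the 66 strong windows, 7 had such a match and 59 did not. The same search matched 67.2% of promoter windows, 1.69% of genic windows and 39.6% of all windows. A window without a match was not shown to lack a start.

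Some intergenic windows resembled each other in sequence. At least 200 bases aligned with at least 80% identity to another window of the same class in 217 intergenic windows (13.1%), 131 genic windows (8.22%) and 124 promoter windows (2.91%). The largest chain joined 194 intergenic windows, whose median antibody coverage was 36.4 against 53.9 in the others. Of this chain 4 windows exceeded 308.9.

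ETS words were concentrated at the centres of the windows. CCGGAAG, a form of the ETS site that holds a CpG, occurred on either strand in the central 300 bases of 279 intergenic windows (16.9%), and in 1.94% of stretches of the same length at the window edges. At promoters the shares were 39.4 and 4.02%, and over all windows 29.4 and 3.12%. CAGGAAG, the form without CpG, showed the opposite order between classes. It occurred at 33.3% of intergenic centres and 12.6% of edges, at 35.6% of genic centres and at 18.8% of promoter centres (25.6% over all windows). Either word was present at 749 intergenic centres (45.4%) and 2233 promoter centres (52.5%). Within 100 bases of the midpoint, CCGGAAG was 14.3 times as dense as beyond 400 bases in intergenic windows and 14.8 times in promoter windows.

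Other fixed motifs were rare or as frequent at the edges. At intergenic centres the NRF1 word GCGCATGCG occurred in 0.182%, the octamer ATTTGCAT of Pou factors in 1.76% against 1.64% at the edges, the Esrrb word TCAAGGTCA in 0.727% against 0.727%, and the AP-1 word TGANTCA in 9.39% against 8.9%. The CTCF motif was found in 3.27 and 2.6%. The Sp/Klf word GGGCGGGG was the exception, with 5.27% at centres and 2.48% at edges. Over all window centres the shares were 1% for NRF1, 0.893% for the octamer, 0.44% for Esrrb, 6.07% for AP-1, 2.87% for CTCF and 13.5% for Sp/Klf.

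Coverage differed more by the presence of CCGGAAG with FLAG than with the antibody. Windows with CCGGAAG had a median of 56.7 in the mean over the Zbtb11 libraries and those without it 49.5, whereas the FLAG-Zbtb11 medians were 55.9 and 44.2. In single libraries the ratio of medians was 1.0, 1.13, 1.06 and 1.11 with the antibody and 1.25, 1.28 and 1.23 with FLAG, so every FLAG library lay above every antibody library. From the 413 intergenic windows with the highest antibody coverage to the 412 with the lowest, in 4 groups by rank, CCGGAAG was present in 15.5, 22.5, 15.5 and 14.1%, highest in the second group, and CAGGAAG in 33.7, 33.2, 32.4 and 34.0%.

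**Figure D3:**
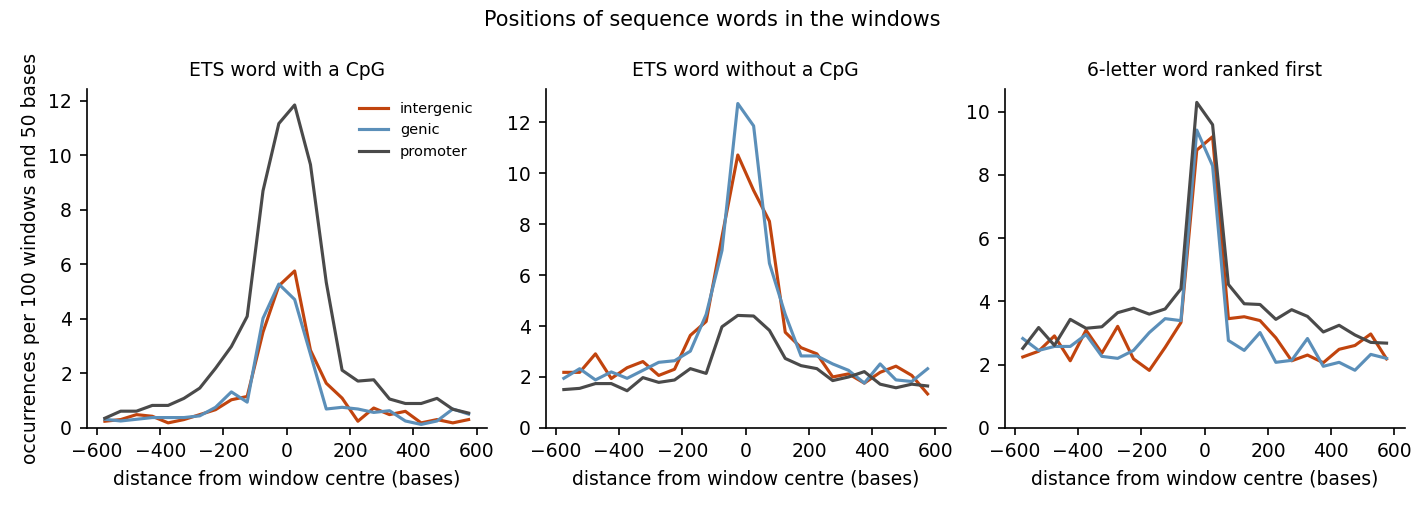
Occurrences per 100 windows and 50 bases (y axis) against the distance from the window centre (x axis, bases) for the ETS word with a CpG, the ETS word without a CpG and the 6-letter word described next, each on both strands. Intergenic, genic and promoter windows are drawn as separate lines. All words peak at the centre. In intergenic windows the highest bin holds 5.75 occurrences of the ETS word with a CpG and 9.21 of the 6-letter word.

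Another short sequence went with antibody coverage. All 2069 words of 6 letters found in at least 15 intergenic centres were ranked by the mean log2 antibody coverage of the windows that held them, standardised by their number, a search made after the values had been seen. The word GGAACC came first. The word in second place, which reads GGAACT on the other strand, was present in 448 windows. Of these, 24.3% were higher with the antibody in the comparison below, beside 11.6% of the intergenic windows without it and 13.4% of all windows. Since it was chosen on antibody coverage of these windows, these shares are a description. In genic windows, which took no part in the choice, the shares with and without it were 20.8 and 12.9%, and in promoter windows 19.4 and 9.9%. GGAACC occurred in 413 intergenic centres (25.0%, against 14.4% of edges, and 28.1% of all window centres). The medians with and without it were 78.9 and 51.1, 68.9 and 44.9, 71.4 and 49.7, and 63.9 and 44.4 in Zbtb11 replicates 1 to 4. In FLAG-Zbtb11 replicates 1 to 3 they were 47.5 and 45.9, 46.8 and 42.4, and 49.3 and 48.8, so the ratio was 1.44 to 1.54 in the antibody libraries that had chosen the word and 1.01 to 1.1 in the FLAG libraries that had not.

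Genic and promoter windows, which took no part in the choice of the word, showed the same order. In genic windows the antibody medians with and without GGAACC were 74.2 and 41.8, with a ratio of 1.68 to 1.87 in the 4 libraries, and the FLAG medians 47.6 and 44.1. In promoter windows they were 122.4 and 84.1 with the antibody and 102.8 and 83.0 with FLAG. GGAACC was also concentrated at the midpoint, where its highest bin of 50 bases held 152 occurrences in intergenic windows, against 37 and 36 in the outermost bins. The first of 11764 words of 8 letters was GGAACCAA, present in 57 intergenic centres (3.45%, and 2.73% of all window centres), where the antibody median was 103.7 and the FLAG median 60.2. In the 61 genic windows with GGAACCAA they were 127.6 and 50.8.

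Coverage was then compared between the ChIPs window by window (limma on log2 of coverage plus 1, adjusted over all 7500 windows). Antibody, tag and cell line change together in this comparison and cannot be told apart. Coverage was higher with the antibody in 248 intergenic windows (15.02%, against 13.4% of all windows), and lower in 47 (2.85%, against 3.4% of all windows). Both shares lay near those of all windows. With the replicate number as a block the counts were 308 higher and 85 lower, beside 1243 and 480 of all 7500 windows. Centring on each library's median moved the median log2 ratio of all windows from 0.01 to -0.10. The counts were then 223 and 96, beside 846 and 501 of all windows, and the share of higher calls fell from 84.1 to 69.9%. The count of lower windows was 13 without FLAG-Zbtb11 replicate 2 (75 of all windows) and 19 without FLAG-Zbtb11 replicate 3 (154 of all). It was 26 without FLAG-Zbtb11 replicate 1 (122 of all) and 73 without Zbtb11 replicate 1 (306 of all). The counts over all windows thus moved in the same direction.

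Windows with GGAACC made up 129 of the 248 higher windows. Of the 413 with the word 31.2% were higher with the antibody and 4 were lower, and of the 1238 without it 9.61% were higher and 43 lower. The median log2 ratio was 0.42 with and -0.05 without it, a difference of 0.42 to 0.51 over 12 other settings. Since the word was chosen on antibody coverage of these windows, their values are a description. In genic windows, which had no part in the choice, 35.4% were higher among those with the word and 7.93% among those without. In promoter windows the shares were 19.5 and 8.99%. GGAACCAA was present in 30 of the 248 windows, with a median log2 ratio of 0.94 in the 57 that held it. Windows with CCGGAAG leaned the other way, with a median of -0.12 against 0.09 without it, and 7.89% against 16.5% higher with the antibody. This was not particular to intergenic windows. The shares were 10 and 15.9% in genic windows, 7.45 and 15.2% in promoter windows, and 7.80 and 15.7% over all windows.

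**Figure D4:**
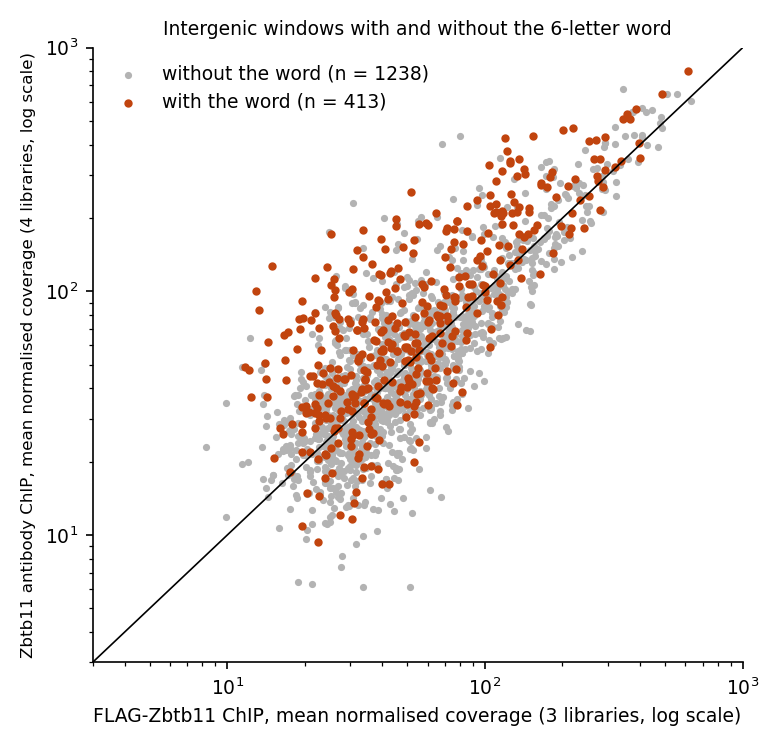
Mean normalised coverage of each intergenic window with the Zbtb11 antibody (y axis, 4 libraries, log scale) against FLAG-Zbtb11 (x axis, 3 libraries, log scale). Each point is a window, coloured points hold the 6-letter word and the line marks equal coverage. Of the 413 coloured windows 129 were higher with the antibody by limma, against 119 of the 1238 grey ones.

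Among the largest differences in favour of the antibody were 2 windows. The window 28.8 kb upstream of 4932435O22Rik (chr11:114338382-114339582) had 133, 104, 83.6 and 81.6 with the antibody and 26.9, 1.46 and 10.4 with FLAG, a log2 ratio of 3.43 ± 0.58 (SE, limma adjusted p = 0.000332). Near AC158662.1, a microRNA entry, the values were 181, 131, 98.1 and 95.8 against 22.2, 10.2 and 12.5 (3.02 ± 0.33). In both windows the groups did not overlap, which is a description only, since the windows were chosen by this ratio. The 4932435O22Rik centre held GGAACC and GGAACT 2 times each, and the AC158662.1 centre held each 1 time.

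The largest differences in favour of FLAG were in weak windows. The window 3.7 kb downstream of Gm10359 had 12.2, 8.02, 2.42 and 1.77 with the antibody and 44.3, 49.7 and 59.7 with FLAG (log2 ratio -3.16 ± 0.76, SE, limma adjusted p = 0.00647). The call was lost without FLAG-Zbtb11 replicate 2 or 3. Upstream of Sh3bgrl2 the window had 21.1, 14.4, 19.98 and 1.77 against 72.8, 61.4 and 68.9 (-2.53 ± 0.64), and was lost without FLAG-Zbtb11 replicate 1. Upstream of Rassf4, a Ras-association family gene, it had 1.11, 1.6, 19.4 and 19.5 against 39.6, 39.5 and 35.5 (-2.50 ± 0.89, adjusted p = 0.0653), and passed with the replicate block (adjusted p = 0.00331), with a pseudocount of 5 (0.0346), after centring (0.0474), and without Zbtb11 replicate 3 (0.0422) or 4 (0.0285). It did not pass in the other 7 settings (0.0653 to 0.216). Again no library of one ChIP reached the other, in windows that were likewise chosen by their ratio. None of the 3 centres held CCGGAAG or GGAACC. The Rassf4 centre held GGAACT 2 times and CAGGAAG 1 time, the Gm10359 centre held CAGGAAG 1 time, and the Sh3bgrl2 centre held neither.

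Expression of the nearest genes was compared between Zbtb11 KO and control cells to ask whether genes beside intergenic windows changed after loss of Zbtb11. Of the 1473 nearest genes 740 were expressed highly enough to be tested, with a median of 27.7 CPM in the EtOH control against 19.96 CPM over all 14346 tested genes. In Zbtb11 KO against the EtOH control, 6 of the 740 fell (0.811%, against 0.843% of all tested genes) and 0 rose (against 0.0558%), by edgeR's quasi-likelihood test with Benjamini-Hochberg adjustment. In bulk samples, fewer cells of a type and less RNA per cell cannot be told apart. At an unadjusted p under 0.05 there were 14 of 740, beside 402 of 14346 in all, and DESeq2 called 7, all lower (0.946%, against 1.25% of all tested genes called in either direction). The median log2 fold change was -0.01 (quartiles -0.07 and 0.06), beside -0.00 (-0.07 and 0.08) over all tested genes. With the replicate block the counts were 8 lower and 2 higher (1.35%, against 2.25% of all tested genes). Leaving out replicate 1 gave 7 (0.956%, against 1.5% of all tested genes). Leaving out replicate 2 gave 1, Wdr11 (0.134%, against 0.0896%), and leaving out replicate 3 gave 2, Sar1b and Wdr11 (0.267%, against 0.145%). The calls over all tested genes thus fell as well, to 13 without replicate 2 and 21 without replicate 3.

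The 6 genes were Stx18, Wdr11, Sar1b, 2700062C07Rik, 1110004E09Rik and Anapc5, and all fell in each KO library below each EtOH library. Wdr11, a WD repeat protein of vesicle trafficking, had 68.4, 60.3 and 58.5 CPM in the EtOH control, 14.6, 17.1 and 14.95 CPM in Zbtb11 KO and 81.3, 69.9 and 72.4 CPM in the 4OHT control. Its log2 fold change in KO against EtOH was -2.004 ± 0.11 (SE, edgeR adjusted p = 2.43e-05). Stx18, a SNARE protein of the endoplasmic reticulum, had 6.67, 10.4 and 10.0 CPM in the EtOH control and 1.11, 2.62 and 2.33 CPM in KO (-2.14 ± 0.30, edgeR adjusted p = 0.00762). Sar1b, a GTPase of COPII vesicles, fell from 29.5, 33.3 and 30.7 CPM to 10.2, 9.7 and 11.1 CPM (-1.59 ± 0.11). Anapc5 had 294, 316 and 316 CPM in the EtOH control and 141, 165 and 163 CPM in KO (-0.98 ± 0.08), and 2700062C07Rik and 1110004E09Rik fell by 1.36 and 0.99 on the log2 scale.

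Each of these 6 genes also had a promoter window of its own, with mean antibody coverage of 679.7 to 1104, above the limit of 308.9. Their intergenic windows were weaker, at 67.5 to 127.3 in 5 of the 6 and 545.6 near Anapc5. Among the 740 nearest genes, 206 had a promoter window and 534 had none. Of the 35 whose promoter window exceeded 308.9, 6 fell (17.1%). Among the 171 with a weaker promoter window 0 fell, and among the 534 without one 0 fell. Tested genes that were not nearest to any intergenic window showed the same division, with 106 lower and 8 higher of 837 genes with a strong promoter window, and 7 lower of 9353 with none.

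Of the 42 tested genes nearest to an intergenic window above 308.9, 1 was called, namely Anapc5. The other genes among them include 30 without a promoter window, whose median log2 fold change was -0.02 with 0 calls. Since 7 of 9887 tested genes without a promoter window were called in all (0.0708%), a count of 0 in 30 does not set them apart. The log2 fold change was 0.01 ± 0.08 for Abcc4, 0.12 ± 0.11 for Foxn4 and -0.02 ± 0.09 for Mta3 (SE). By distance, 2 of 106 genes fell with the closest window under 5 kb, 2 of 313 at 5 to 20 kb, 2 of 282 at 20 to 100 kb and 0 of 39 at 100 kb or more.

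**Figure D5:**
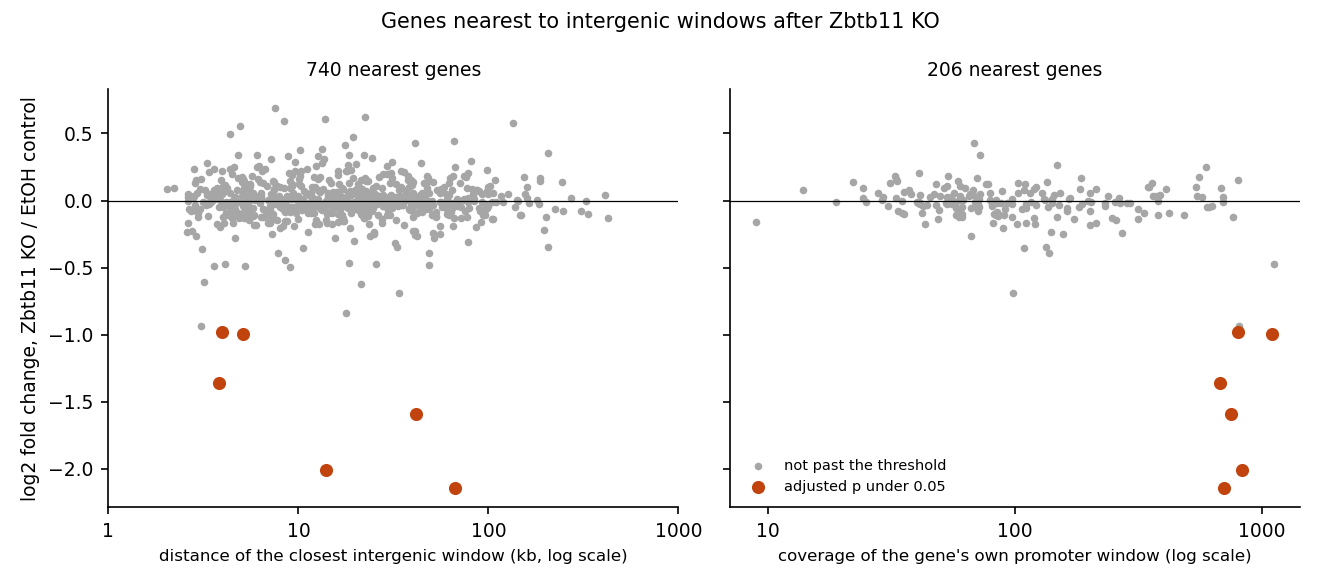
Log2 fold change in Zbtb11 KO against the EtOH control (y axis) of genes nearest to intergenic windows, against the distance of the closest such window (left, kb, log scale, 740 genes) and against the coverage of the gene's own promoter window (right, log scale, the 206 genes that have one). Larger coloured points are the 6 genes past the threshold. They span the distances from 3.81 to 66.7 kb on the left and stand together at the high end, 679.7 to 1104, on the right.

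Comparisons with the 4OHT control held more calls in both directions. In Zbtb11 KO against the 4OHT control 33 of the 740 nearest genes were lower (background 3.72%) and 30 higher (background 2.73%). The 2 comparisons share the KO libraries. In the 4OHT control against the EtOH control, where neither group had lost Zbtb11, 20 were lower (background 2.01%) and 18 higher (background 2.06%). With the replicate block these totals were 284 and 285 (38.4 and 38.5%, against 34.9 and 33.6% of all tested genes). Without replicate 1 they were 156 and 152 (21.3 and 20.8%, against 18.7 and 17.1%). Without replicate 2, in contrast, they were 4 and 1 (0.536 and 0.134%, against 0.565 and 0.0896%). Without replicate 3 they were 7 and 1 (0.935 and 0.134%, against 0.785 and 0.165%). The 6 genes above were lower in KO than in the 4OHT control as well, with log2 fold changes of -2.33 to -1.01, and differed by -0.04 to 0.26 between the controls, where their edgeR adjusted p values were 0.22 to 0.951.

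Intergenic windows were nearest to some genes of ESC identity and of mitochondrial function. Among tested genes this was so for 4 of 33 naive pluripotency genes, 1 of 12 early lineage genes, 3 of 37 complex I genes and 4 of 75 mitoribosome genes (12.1, 8.33, 8.11 and 5.33%), beside 740 of all 14346 (5.16%). None of the 33 naive pluripotency genes passed the test in KO against EtOH. Jarid2, a partner of the Polycomb complex PRC2, had the strongest window of the 4, 13.4 kb upstream of its start, with 169, 164, 171 and 160 with the antibody and 155, 156 and 148 with FLAG. Its antibody libraries all lay above its FLAG libraries, although the log2 ratio of 0.11 ± 0.15 did not pass the test (limma adjusted p = 0.677). The log2 fold change of Jarid2 expression in KO against EtOH was -0.07 ± 0.31 (SE). The windows near Stat3, Sall4 and Tcl1 had mean antibody coverage of 19.6 to 26.8. Of the early lineage genes Fgf8, Pou3f1 and Otx2 were nearest to a window, at 119.2, 62.8 and 35.1, and 0 of the 12 tested genes of that list changed.

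For respiratory complex I, 3 of 37 tested genes fell and 0 rose, and 3 genes of the list (Ndufv3, Ndufs4 and Ndufa10) were nearest to an intergenic window, with mean antibody coverage of 51.8, 34.8 and 22.7. For the mitoribosome, which translates the mitochondrial genome, 7 of 75 tested genes fell and 0 rose. Here 6 windows were nearest to 4 genes, namely Mrps33 with 3 windows (153.2, 75.5 and 54.99), Mrpl33 (135.0), Mrpl32 (39.2) and Mrpl11 (18.4). None of the 7 nearest genes in these 2 lists was among those that fell. The log2 fold change was -0.07 ± 0.12 for Mrps33, 0.10 ± 0.17 for Mrpl33 and -0.25 ± 0.15 for Mrpl32 (SE). A promoter window was present at 43 of the tested mitoribosome genes (57.3%), 12 of complex I (32.4%), 4 of naive pluripotency (12.1%) and 2 of early lineage (16.7%), beside 31.1% of all tested genes.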

How the data were processed

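ChIP-seq and RNA-seq were performed on mouse ESCs. For ChIP-seq the authors aligned reads with Bowtie 1.1.2 (mm9), called peaks with MACS2 and removed sites found in the FLAG control. They deposited normalised read coverage (signal) over 7500 consensus windows, made with DiffBind. For RNA-seq the authors trimmed with cutadapt, aligned with STAR and deposited raw counts per gene from HTSeq, and 25.3 to 31.6% of the reads of a library were assigned to no gene and were left out. Within a library all coverage values (100%, tolerance 0.01) were whole multiples of the worth of 1 read, so whole reads could be recovered and tested as an alternative. Peak lists were used for width and overlap only. Window starts and ends were read as counted from 1. Input libraries were not analysed here.

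The members and gene lists were chosen with earlier results of these data known. Windows were placed with the GENCODE vM1 annotation (mm9). CpG islands, sequence words on both strands and observed-to-expected CpG ratios were computed from the genome. The central 300 bases were compared with 300 bases at the window edge. RefSeq promoter sequences (GRCm38.p6) were aligned to the mm9 windows with blastn 2.17.0 at an identity of at least 98%. Matches had to lie on the same chromosome, but their position and uniqueness were not checked. No repeat annotation was used.

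Coverage was compared with limma 3.58.1 on log2(coverage + 1), and class medians with exact permutation tests over libraries. Counts were tested with edgeR 4.0.16 (quasi-likelihood, TMM, genes above 1 CPM in at least 3 libraries, all 3 groups in 1 fit), and fold changes are on the log2 scale. Calls are at a Benjamini-Hochberg adjusted p under 0.05. DESeq2 1.42.0, other filters, scalings, pseudocounts and each library left out served as alternatives, and scripts were tested on simulated data. Replicates are the study's biological replicates, and p-values measure the spread between them. Libraries with the same replicate number deviated together (r of 0.43 to 0.82 between RNA-seq groups and 0.12 to 0.47 between the ChIPs). Pairs with unlike numbers overlapped these values. In RNA-seq, replicates 2 and 3 of different groups had r of 0.29 to 0.53, and replicate 1 had -0.75 to -0.48 with either. Unlike pairs of the ChIPs had -0.32 to 0.15. Values with the replicate number as a block are given where they change a call. Windows named are the 10 strongest, the 3 most extreme ratios each way, the 3 farthest from a gene start, and those nearest to called or listed genes. Some windows and sequences that this rule names are not reported here.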

Additional observations from a re-analysis of the deposited data

How the results depend on the processing

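The lower coverage of intergenic than promoter windows kept its direction and its call under every alternative run. The intergenic to genic log2 ratio was 0.056 to 0.081 with a library left out. It missed the threshold for 6 of the 7 libraries, where the ratio of 0 in FLAG-Zbtb11 replicate 2 allows no exact p below 0.0625, so this says nothing about its stability. With the replicate number as a block, 10 of the 740 nearest genes were called in Zbtb11 KO against the EtOH control, 284 against the 4OHT control and 285 between the controls, where without it there were 6, 63 and 38. Leaving out 1 replicate gave 1 to 7, 4 to 156 and 1 to 152 calls in the same order. The shares of all tested genes called moved as well, over 0.0896 to 1.5%, 0.565 to 18.7% and 0.0896 to 17.1%. DESeq2 gave 7, 95 and 76 (0.946, 12.8 and 10.3%, against 1.25, 10.2 and 8.27% of all tested genes). The causes were not tested. For the Gm7308 window the log2 ratio of antibody to FLAG, -0.07, turned to 0.02 without Zbtb11 replicate 1, 0.05 without Zbtb11 replicate 3, 0.03 without FLAG-Zbtb11 replicate 1 and 0.069 without FLAG-Zbtb11 replicate 2 (lowest -0.32, without FLAG-Zbtb11 replicate 3), none past the threshold. The ETS words were present in 14.8 and 28.2% of the windows when only the central 200 bases were searched, a choice made after seeing the data. Other definitions of a promoter or gene left 1413 to 1849 intergenic windows. The block turned no direction of a named window or gene. Depth limits the weak windows most, since 1 read was worth 0.418 to 1.77 units of coverage.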
